A study of Mus musculus with 8 samples.

Results

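The genes described here make, interconvert or carry amino acids, and the transcription factor ATF4 is known to drive many of them when cells are stressed. They were chosen as a list of 10 symbols for enzymes of asparagine, proline, cysteine and alanine metabolism and for amino acid transporters of the plasma membrane. Ensembl identifiers tied 9 of the 10 to rows among the 48328 genes of the table, namely Asns, Aldh18a1, Pycr1, Cth, Gpt2, Slc7a11, Slc3a2, Slc7a1 and Slc38a2, while Slc7a5 is not analysed here. Total RNA of the tibialis anterior, a fast hindlimb muscle, had been sequenced from C57BL/6J mice aged 24 months. There were 4 mice of the genotype K320E-skm and 4 wild-type mice; K320E is a dominant mutation of Twinkle, the helicase that unwinds mitochondrial DNA, and is expressed in skeletal muscle. The labels give 2 males and 2 females in each genotype. The construct that directs the mutant protein to muscle is not given in the sources used here, nor is any treatment. The comparison asks which transcripts set aged K320E-skm muscle apart from wild-type muscle of the same age.

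Amino acid enzymes and transporters are tied together by a stress circuit. Shortage of an amino acid, or damage to mitochondria, leads to phosphorylation of the translation factor eIF2 alpha, and the ATF4 protein is then made in larger amounts. ATF4, usually paired with a C/EBP protein, binds short composite DNA elements beside genes that restore amino acid supply and support glutathione synthesis. Muscle is a large store of amino acids and exports alanine and glutamine to other organs.

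A composite C/EBP-ATF element, searched as the letters TGATGNAAN on both strands, was present in the promoter window of 3 of the 8 genes that had one. Each window is 300 bases of RefSeq sequence (build GRCm38.p6), from 250 bases before to 50 after the transcription start, and Cth had no entry in the promoter table. Over all 32851 windows of that length, 3.95% held a match and 0.0700% held 2 or more. The windows with a match are shown, 5′ to 3′ on the gene's strand, because they carry the element through which ATF4 is known to act; capitals mark the matches. Slc7a11 (chr3:50443564-50443863, minus strand) had 2 matches, the first beginning 66 bases and the second, on the opposite strand, 48 bases before the start. Asns (chr6:7693160-7693459, minus strand) had 1 match beginning 23 bases before the start, and Pycr1 (chr11:120643699-120643998, minus strand) had 1 beginning 103 bases before it.
Slc7a11: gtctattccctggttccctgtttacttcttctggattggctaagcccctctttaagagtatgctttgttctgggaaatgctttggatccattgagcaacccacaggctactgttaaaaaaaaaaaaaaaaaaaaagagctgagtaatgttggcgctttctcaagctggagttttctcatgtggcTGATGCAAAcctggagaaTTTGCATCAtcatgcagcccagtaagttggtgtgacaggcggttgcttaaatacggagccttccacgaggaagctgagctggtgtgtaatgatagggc
Asns: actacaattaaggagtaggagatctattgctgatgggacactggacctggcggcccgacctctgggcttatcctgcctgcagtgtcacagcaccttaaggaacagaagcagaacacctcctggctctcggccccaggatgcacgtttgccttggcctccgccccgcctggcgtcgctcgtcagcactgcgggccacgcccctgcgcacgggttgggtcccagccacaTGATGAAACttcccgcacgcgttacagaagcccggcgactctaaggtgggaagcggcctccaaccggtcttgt
Pycr1: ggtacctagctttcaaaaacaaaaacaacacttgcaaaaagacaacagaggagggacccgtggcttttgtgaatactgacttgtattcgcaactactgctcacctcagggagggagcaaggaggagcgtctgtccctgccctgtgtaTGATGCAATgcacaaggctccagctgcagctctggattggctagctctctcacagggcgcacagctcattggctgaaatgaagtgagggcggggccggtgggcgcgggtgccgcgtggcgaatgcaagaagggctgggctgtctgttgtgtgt
The windows of Aldh18a1, Gpt2, Slc3a2, Slc7a1 and Slc38a2 held no match to these letters. A match describes the sequence and is not a measured binding site.

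The values were FPKM, read fragments scaled to transcript length and to the mapped total of the library. By the steps between the lowest values of genes with 1 annotated transcript, an estimate that rests on annotated lengths, 1 fragment on a transcript of 2 kb was worth 0.0106 to 0.0140 FPKM, and the deepest library had 1.32 times the depth of the shallowest, K320E-skm 4. Of the muscle fibre markers, Ckm, Myh1 and Tnnt3 summed to between 13569 and 15879 FPKM in K320E-skm and between 16623 and 18993 FPKM in wild-type libraries. These markers did not move together. As deposited, Tnnt3 was lower in every K320E-skm library than in every wild-type library, while Ckm overlapped. None of the 3 fibre markers had an unadjusted p under 0.05 from limma in either direction. Neither they nor their sums are given here after rescaling of the libraries. Myh1 was at 502, 1300, 1469 and 1539 FPKM (K320E-skm 1 to 4) against 607, 1189, 779 and 1123 FPKM (wild-type 1 to 4). Twnk, which encodes Twinkle, was at 3.82 to 5.06 FPKM in K320E-skm and at 2.16 to 2.70 FPKM in wild-type libraries. The library labelled K320E-skm 4 is given as male, yet it held Xist at 10.2 FPKM and the Y-linked Ddx3y at 0.0117 FPKM, the pattern of the libraries labelled female. It was kept, and the fold changes of the 9 genes are also given without it. By these transcripts K320E-skm 1 alone showed the male pattern in its genotype, against wild-type 1 and 3. Sex read from transcripts was thus not balanced between the genotypes. The fits used the labelled sex, and none used sex read from transcripts. Mitochondrial ribosomal RNA took 41.5% to 46.9% of the summed FPKM in K320E-skm and 31.2% to 37.5% in wild-type libraries. FPKM are relative to all mapped fragments, and the median of 10521 tested genes lay at a log2 fold change of −0.14, K320E-skm minus wild-type, as deposited and at 0.00 after median-ratio rescaling; the part of the ribosomal RNA in this shift was not tested.

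Across the comparison of K320E-skm with wild-type muscle, Asns and the cystine transporter gene Slc7a11 had the largest ratios of mean FPKM among the 9 genes, 6.41 and 6.93. Slc7a1, the arginine and lysine transporter gene, followed at 2.15 and the proline enzyme gene Pycr1 at 1.85. Means were higher in K320E-skm muscle for 8 of the 9 genes and lower for the alanine aminotransferase gene Gpt2. Asns and Slc7a11 were the 2 genes of the 9 whose 4 K320E-skm values all lay above the 4 wild-type values, where 0.498% of the 27723 genes with any value did so in that direction. For Slc7a11 this rested on 0.0977 FPKM in K320E-skm 4 against 0.0936 FPKM in wild-type 1. No gene of the 9 passed an adjusted p of 0.05 from limma over all genes, a threshold that 0.0190% of the 10521 tested genes passed.

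**Figure D1:**
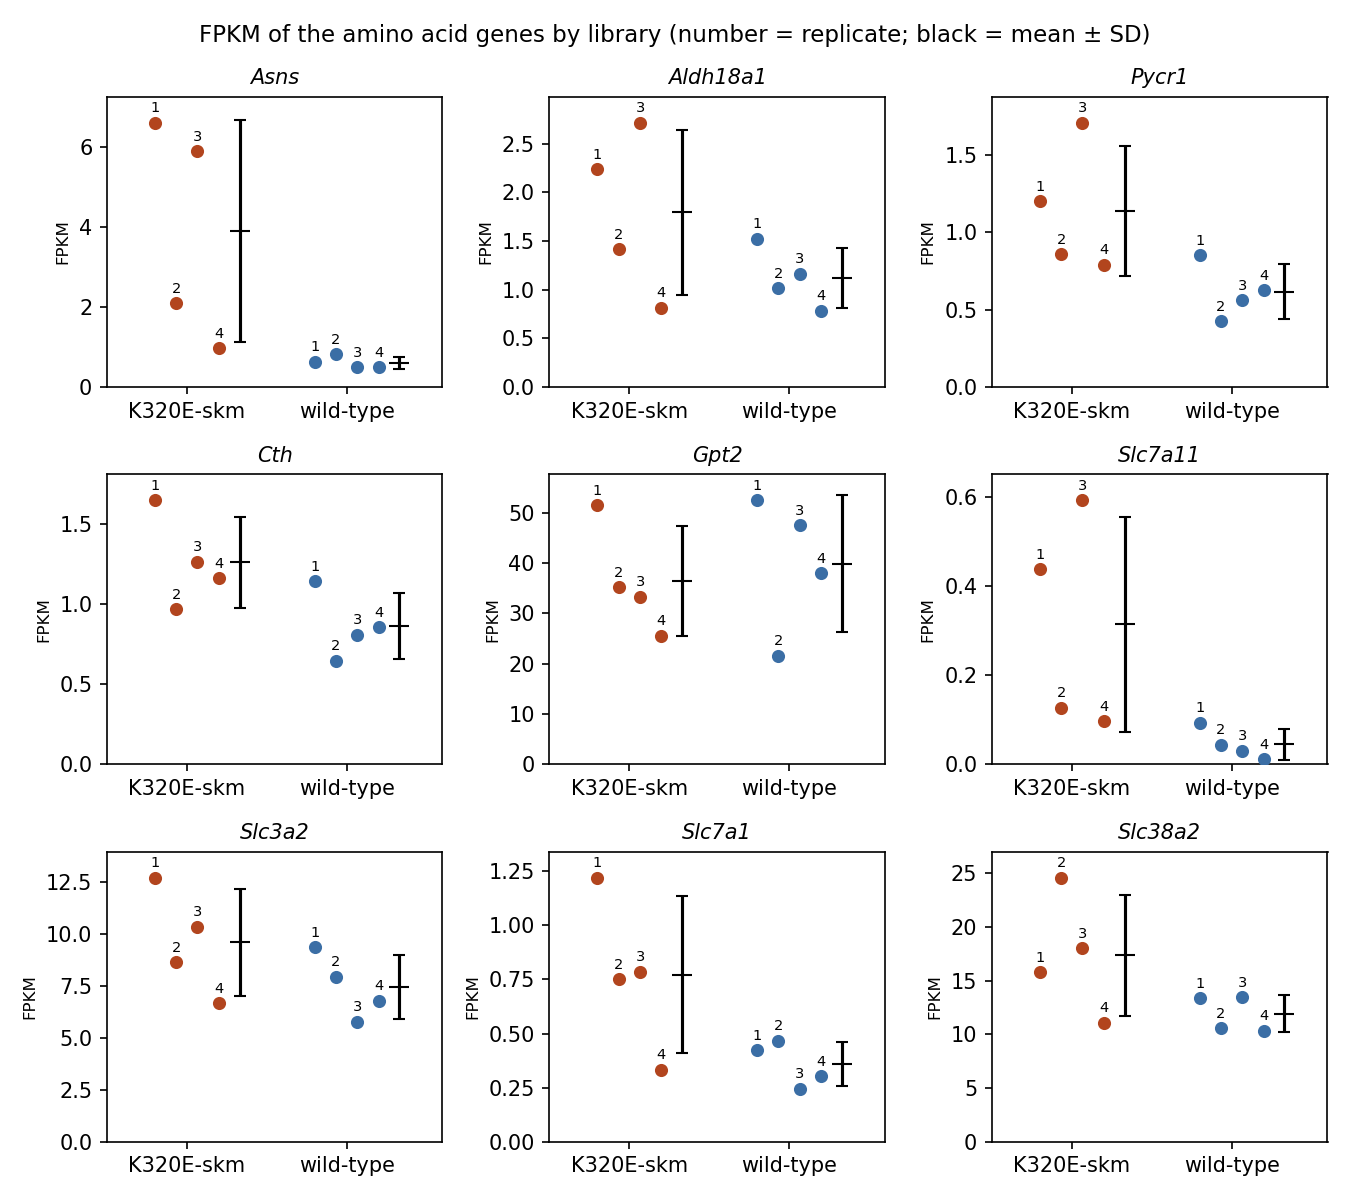
FPKM of the 9 genes in each library, with K320E-skm in orange on the left and wild-type in blue on the right of each panel; numbers give the replicate and black bars the mean ± SD (n = 4 each). Asns and Slc7a11 do not overlap between the genotypes, Slc7a11 narrowly (0.0977 FPKM in K320E-skm 4 against 0.0936 FPKM in wild-type 1). K320E-skm 4 is the lowest of its genotype in 8 of the 9 panels.

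The expression filter asked for 1 FPKM in 4 or more of the 8 libraries and let 5 of the 9 genes into the fit: Aldh18a1, Cth, Gpt2, Slc3a2 and Slc38a2. Cth passed through 3 K320E-skm libraries and 1 wild-type library. Asns, Pycr1 and Slc7a1 were read from the same fit with a filter of 0.1 FPKM, and Slc7a11 from the fit with no filter, as it was under that filter too. Of the 5 genes, 0 had an unadjusted p under 0.05 in the direction of higher values, where 1.12% of the tested genes did; the gene nearest to it was Cth. With the filter of 0.1 FPKM there were 4 of 8 genes, against 1.14% of 17386, and with no filter 2 of 9 genes, against 1.09% of 27723.

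Asns encodes asparagine synthetase, which makes asparagine from aspartate and glutamine and is a classical target of ATF4 (ENSMUSG00000029752, chromosome 6, 7675169 to 7693254). The FPKM were 6.60, 2.10, 5.90 and 0.963 (K320E-skm 1 to 4) against 0.625, 0.817, 0.489 and 0.498 (wild-type 1 to 4). K320E-skm 1 and 3 were high, K320E-skm 2 lay between, and K320E-skm 4 lay just above the highest wild-type library. The means were 3.89 ± 2.78 FPKM in K320E-skm muscle against 0.607 ± 0.153 FPKM in wild-type (SD, n = 4 each; two-sided exact permutation p = 0.0286, the lowest value possible with 4 mice per genotype). The log2 fold change on the scale of log2(FPKM + 1) was 1.40 (SE 0.39; limma unadjusted p = 0.00557, adjusted p = 0.394). Without K320E-skm 4 the log2 fold change was 1.81, with an adjusted p of 0.218 from limma.

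The proline pathway was represented by its first and its last enzyme. Aldh18a1 encodes the synthase that turns glutamate into the precursor of proline and ornithine (ENSMUSG00000025007, chromosome 19, 40550257 to 40588463). The FPKM were 2.24, 1.41, 2.71 and 0.813 (K320E-skm 1 to 4) against 1.52, 1.02, 1.16 and 0.783 (wild-type 1 to 4). The groups overlapped, with K320E-skm 1 and 3 above every wild-type library. The means of Aldh18a1 were 1.79 ± 0.846 FPKM in K320E-skm muscle against 1.12 ± 0.310 FPKM in wild-type (SD, n = 4 each; exact permutation p = 0.229; log2 fold change 0.36, SE 0.23, limma unadjusted p = 0.147, adjusted p = 0.493). That fold change was 0.58 without K320E-skm 4 (limma unadjusted p = 0.00962, adjusted p = 0.371) and 0.17 without K320E-skm 3. A processed pseudogene, Gm15801, lies inside it on the same strand.

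Pycr1 encodes the mitochondrial reductase of the last step of proline synthesis (ENSMUSG00000025140, chromosome 11, 120635712 to 120643769). The FPKM were 1.20, 0.859, 1.71 and 0.792 (K320E-skm 1 to 4) against 0.852, 0.424, 0.560 and 0.627 (wild-type 1 to 4). Wild-type 1 reached above K320E-skm 4 and almost to K320E-skm 2. Means of Pycr1 were 1.14 ± 0.419 FPKM in K320E-skm muscle against 0.616 ± 0.179 FPKM in wild-type (SD, n = 4 each; exact permutation p = 0.0571). Its log2 fold change was 0.39 (SE 0.15; limma unadjusted p = 0.0305, adjusted p = 0.442), and was 0.49 without K320E-skm 4 and 0.25 without K320E-skm 3.

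Cth encodes cystathionine gamma-lyase, which releases cysteine at the end of transsulfuration (ENSMUSG00000028179, chromosome 3, 157894248 to 157925077). The FPKM were 1.65, 0.972, 1.27 and 1.16 (K320E-skm 1 to 4) against 1.15, 0.647, 0.810 and 0.857 (wild-type 1 to 4). K320E-skm 1, 3 and 4 lay above the wild-type libraries and K320E-skm 2 lay below wild-type 1. The means of Cth were 1.26 ± 0.286 FPKM in K320E-skm muscle against 0.865 ± 0.207 FPKM in wild-type (SD, n = 4 each; exact permutation p = 0.0571), at a log2 fold change of 0.28 (SE 0.13; limma unadjusted p = 0.0529, adjusted p = 0.383) that was 0.34 without K320E-skm 4. An unconfirmed transcript, Gm43314, overlaps Cth on the same strand. Among these enzymes and transporters, Cth was the gene for which K320E-skm 4 was not the lowest of its genotype.

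Gpt2, the mitochondrial alanine aminotransferase, interconverts pyruvate and glutamate with alanine and 2-oxoglutarate (ENSMUSG00000031700, chromosome 8, 85492576 to 85527560). It was the most abundant of the 9 genes, with FPKM of 51.5, 35.2, 33.3 and 25.6 (K320E-skm 1 to 4) against 52.4, 21.6, 47.5 and 38.0 (wild-type 1 to 4). The groups overlapped over most of their range. The means were 36.4 ± 10.9 FPKM in K320E-skm muscle against 39.9 ± 13.6 FPKM in wild-type (SD, n = 4 each; exact permutation p = 0.83), and the log2 fold change of −0.10 (SE 0.26) changed sign after median-ratio rescaling, at 0.08 (SE 0.27), and without K320E-skm 4, at 0.17.

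Among the transporters, Slc7a11 encodes xCT, the light chain that brings in cystine in exchange for glutamate (ENSMUSG00000027737, chromosome 3, 49892526 to 50443614). It was the lowest of the 9 genes, with FPKM of 0.439, 0.128, 0.593 and 0.0977 (K320E-skm 1 to 4) against 0.0936, 0.0446, 0.0311 and 0.0123 (wild-type 1 to 4). K320E-skm 1 and 3 stood apart, and K320E-skm 4 lay 1.04-fold above wild-type 1. Its means were 0.314 ± 0.242 FPKM in K320E-skm muscle against 0.0454 ± 0.0347 FPKM in wild-type (SD, n = 4 each; exact permutation p = 0.0286). The pseudocount of 1 held the log2 fold change to 0.31 (SE 0.13; limma unadjusted p = 0.0427, adjusted p = 0.563), and with a pseudocount of 0.1 it was 1.34 (SE 0.46; adjusted p = 0.515). With the pseudocount of 1 it was 0.40 without K320E-skm 4 and 0.20 without K320E-skm 3. Another 5 annotated genes overlap this locus, 2 of them on the same strand, so its level is uncertain.

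Slc3a2 encodes the heavy chain 4F2hc, which brings xCT and other light chains to the cell surface (ENSMUSG00000010095, chromosome 19, 8706882 to 8723369). The FPKM were 12.7, 8.66, 10.4 and 6.66 (K320E-skm 1 to 4) against 9.36, 7.95, 5.79 and 6.79 (wild-type 1 to 4). K320E-skm 1 and 3 exceeded every wild-type library, and K320E-skm 4 lay below wild-type 4. Means of Slc3a2 were 9.60 ± 2.56 FPKM in K320E-skm muscle against 7.47 ± 1.54 FPKM in wild-type (SD, n = 4 each; exact permutation p = 0.229; log2 fold change 0.31, SE 0.20, limma unadjusted p = 0.164, adjusted p = 0.508). The fold change of Slc3a2 was 0.48 without K320E-skm 4 (limma unadjusted p = 0.0321, adjusted p = 0.421), 0.14 without K320E-skm 1 and 0.19 without wild-type 3.

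Slc7a1 encodes CAT1, which carries arginine, lysine and ornithine (ENSMUSG00000041313, chromosome 5, 148327410 to 148399904). The FPKM were 1.22, 0.750, 0.785 and 0.332 (K320E-skm 1 to 4) against 0.423, 0.466, 0.244 and 0.302 (wild-type 1 to 4). K320E-skm 1, 2 and 3 lay above the wild-type libraries and K320E-skm 4 lay among them. The means of Slc7a1 were 0.771 ± 0.362 FPKM in K320E-skm muscle against 0.359 ± 0.103 FPKM in wild-type (SD, n = 4 each; exact permutation p = 0.0857), at a log2 fold change of 0.36 (SE 0.15; limma unadjusted p = 0.0357, adjusted p = 0.446) that was 0.51 without K320E-skm 4 and 0.21 without K320E-skm 1.

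Slc38a2 encodes SNAT2, a sodium-coupled transporter of small neutral amino acids that is known to be raised by amino acid shortage (ENSMUSG00000022462, chromosome 15, 96687392 to 96699730). The FPKM were 15.8, 24.5, 18.0 and 11.1 (K320E-skm 1 to 4) against 13.4, 10.6, 13.4 and 10.3 (wild-type 1 to 4). K320E-skm 2 was the highest library, unlike for any other of the 9 genes, and K320E-skm 4 lay within the wild-type range. Means of Slc38a2 were 17.3 ± 5.60 FPKM in K320E-skm muscle against 11.9 ± 1.71 FPKM in wild-type (SD, n = 4 each; exact permutation p = 0.114), at a log2 fold change of 0.46 (SE 0.22; limma unadjusted p = 0.0594, adjusted p = 0.389). It was 0.65 without K320E-skm 4 (limma unadjusted p = 0.00778, adjusted p = 0.362) and 0.28 without K320E-skm 2. Genotype differences are not given by sex for any of the 9 genes, since the sex label of K320E-skm 4 is in doubt.

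**Figure D2:**
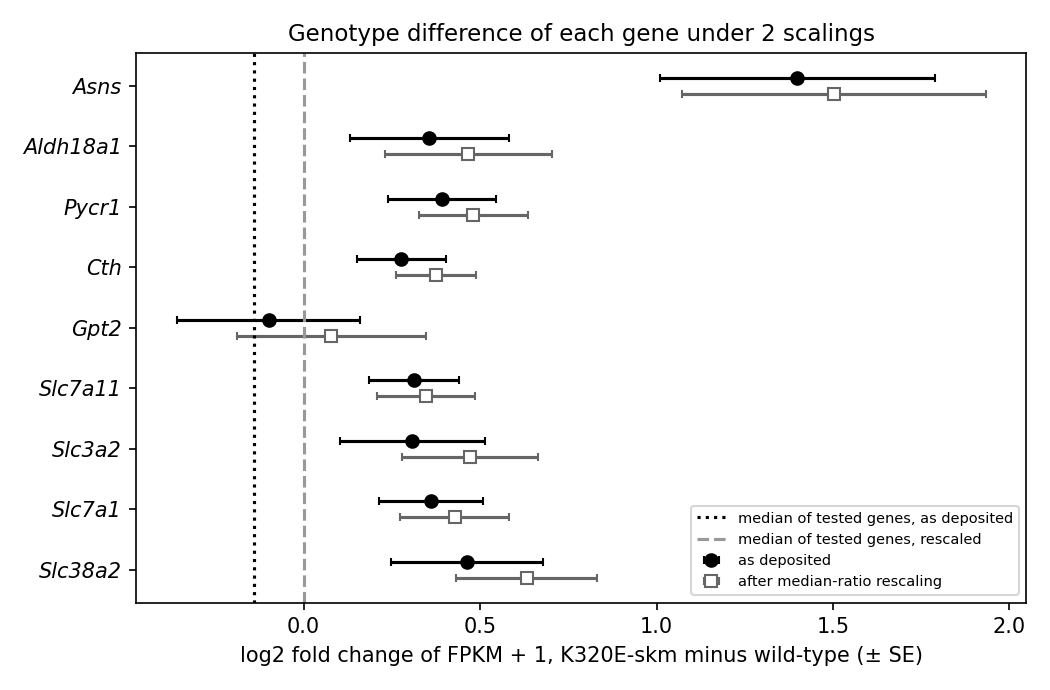
Log2 fold change of FPKM + 1, K320E-skm minus wild-type, with its SE for each gene, as deposited (filled circles) and after median-ratio rescaling (open squares); vertical lines mark the median of the 10521 tested genes. Asns, Pycr1 and Slc7a1 come from the fit with a filter of 0.1 FPKM and Slc7a11 from the fit with no filter. The medians of all genes in those fits were −0.10 and −0.04 as deposited. Asns lies farthest to the right at 1.40, and Gpt2 lies on both sides of 0 at −0.10 and 0.08. The pseudocount of 1 holds the low Slc7a11 close to 0.

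Rescaling the libraries to a common level moved the median of the tested genes by 0.14 on the log2 scale and the 9 genes upward with it. After it, 4 of the 9 genes were higher in K320E-skm muscle without overlap, against 1.72% of 27723 genes; these were Asns, Pycr1, Cth and Slc7a11 (exact permutation p = 0.0286 each, n = 4 per genotype). Of the 5 genes in the fit, Cth, Slc3a2 and Slc38a2 then had an unadjusted p under 0.05 from limma in the direction of higher values, a count of 3 against 5.19% of the tested genes. Their log2 fold changes were 0.38 for Cth (SE 0.11), 0.47 for Slc3a2 (SE 0.19) and 0.63 for Slc38a2 (SE 0.20), and the smallest adjusted p of the 9 genes after rescaling was 0.381. The median log2 fold change of the 5 genes was 0.31 as deposited and 0.47 after rescaling.

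The ratio of the highest to the lowest library was larger within K320E-skm than within wild-type muscle for 6 of the 9 genes; Cth, Gpt2 and Slc7a11 were the other 3. Asns varied 6.86-fold between the highest and lowest K320E-skm library and 1.67-fold among wild-type libraries, and Slc7a1 varied 3.67-fold in K320E-skm and 1.91-fold in wild-type libraries. K320E-skm 1 was the highest of its genotype for 5 genes (Asns, Cth, Gpt2, Slc3a2 and Slc7a1), K320E-skm 3 for 3 (Aldh18a1, Pycr1 and Slc7a11) and K320E-skm 2 for Slc38a2. K320E-skm 4 was the lowest for 8 of the 9 genes. Each library was left out in turn as an alternative, and the choice to set out the values without K320E-skm 4 was made after seeing the data. Since that library was the lowest for 8 of the 9 genes, leaving it out had to raise their K320E-skm means. Without it, 5 genes were higher in K320E-skm muscle without overlap, against 1.28% of 27723 genes: Asns, Pycr1, Slc7a11, Slc7a1 and Slc38a2. The ratios of mean FPKM were then 8.01 for Asns, 8.52 for Slc7a11 and 2.56 for Slc7a1. In the fit without this library, 4 of the 5 genes, Aldh18a1, Cth, Slc3a2 and Slc38a2, had an unadjusted p under 0.05 from limma, all higher, against 1.79% of the tested genes, and none passed over all genes.

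**Figure D3:**
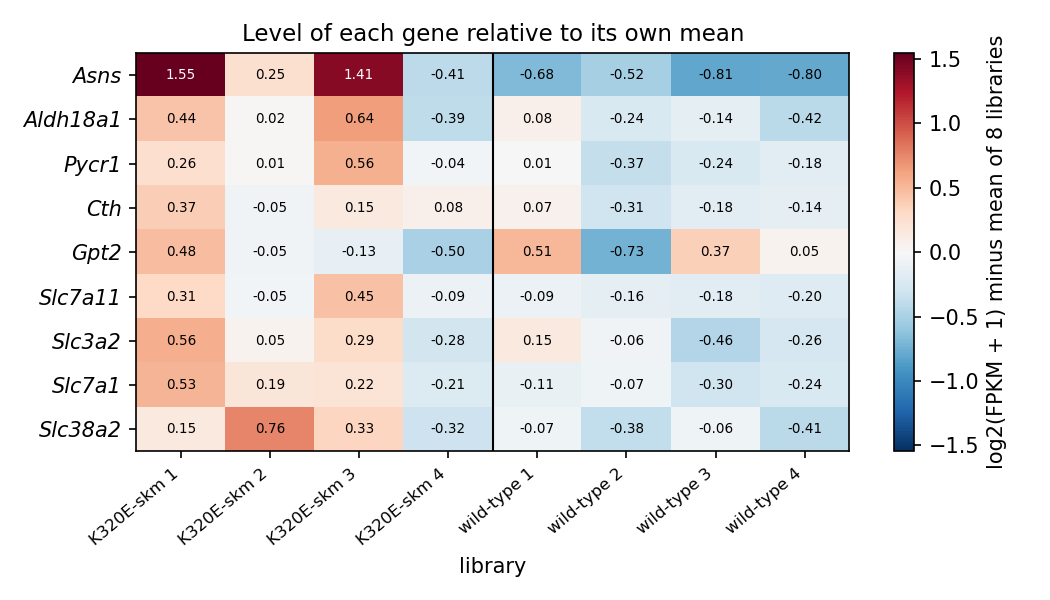
Log2(FPKM + 1) of each gene minus its mean over the 8 libraries, K320E-skm left of the black line and wild-type right of it. The Asns row spans from 1.55 in K320E-skm 1 to −0.81 in wild-type 3, and K320E-skm 4 is below the mean for 8 of 9 genes.

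In order of level, Gpt2 stood first and Slc38a2 and Slc3a2 after it in both genotypes. Asns held place 4 in K320E-skm muscle and place 7 in wild-type muscle, and Slc7a1 and Slc7a11 were last in both. From Asns down to Slc7a11, the ranges of neighbours in the order overlapped in K320E-skm muscle. In wild-type muscle the ranges of Aldh18a1, Cth, Pycr1 and Asns overlapped from one to the next, while those of Asns, Slc7a1 and Slc7a11 did not.

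The genes with profiles most like that of Asns over the 8 libraries were sought among protein-coding genes. Candidates had to reach 1 FPKM in at least 2 libraries. By the root mean square difference between centred log2(FPKM + 1) values, the nearest of 10192 protein-coding genes were Fgf21 at 0.17 and Gdf15 at 0.23, hormones that muscle secretes under mitochondrial stress, and the pseudokinase gene Trib3 at 0.25. The peroxisomal oxidase gene Acox2 at 0.34 and the synaptic scaffold gene Dlg2 at 0.36 came next. Fgf21, Acox2 and Dlg2 reached 1 FPKM in K320E-skm 1 and 3 alone. Gdf15 and Trib3 reached it in K320E-skm 1, 2 and 3 alone. They all became candidates only through libraries in which Asns was above 1 FPKM too, so their likeness is partly built in. The measure describes these libraries and carries no test. For Fgf21 the FPKM were 3.11, 0.976, 4.00 and 0.397 (K320E-skm 1 to 4) against 0.0311, 0.248, 0.229 and 0.0570 (wild-type 1 to 4). K320E-skm 1 and 3 were the highest and K320E-skm 4 the lowest of its genotype, as for Asns. Of the other 8 genes of the set, Aldh18a1 was the nearest to Asns at 0.62 and Gpt2 the farthest at 0.95. The measure is not scaled to the spread of each gene, so it follows the size of the differences as well as their shape. Slc7a11, whose values the pseudocount of 1 held close together, was at 0.70.

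The other genes of these pathways were counted by an unadjusted p under 0.05 from limma, which over all tested genes 1.12% passed with higher and 12.0% with lower values as deposited, and 5.19% with higher and 4.66% with lower values after rescaling. Of 13 tested enzymes of asparagine, aspartate and glutamate, 0 had such a p in either direction as deposited and 2 had one with higher values after rescaling, and their median log2 fold change was −0.15, beside −0.14 over all tested genes. The most abundant was Adssl1, the muscle adenylosuccinate synthase gene, at −0.12. Of 9 tested proline and ornithine enzymes, 0 had such a p as deposited and 1, higher, after rescaling, and the median was −0.09. Oat, ornithine aminotransferase, averaged 47.5 ± 4.39 FPKM in K320E-skm muscle against 56.1 ± 3.23 FPKM in wild-type (SD, n = 4 each). Its log2 fold change was −0.24 (SE 0.12, limma unadjusted p = 0.086) as deposited and −0.06 (SE 0.10) after rescaling.

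Of 14 tested transsulfuration and cysteine enzymes, 2 had an unadjusted p under 0.05 in the direction of lower values, where 12.0% of all tested genes did, and 0 in the other direction, as deposited. They were the sulfurtransferase gene Mpst at −0.36 (SE 0.14) and the glutathione-degrading Chac2 at −0.26 (SE 0.11); the abundant Mat2a, which makes S-adenosylmethionine, was at −0.15. Of 12 tested enzymes of alanine and branched-chain amino acids, 4 were lower by the same measure and 0 higher, with a median of −0.21. The phosphatase gene Ppm1k, which activates branched-chain ketoacid breakdown, was at −0.44 (SE 0.14), Bcat2, which transaminates these amino acids, at −0.36 (SE 0.14) and the leucine-degrading Mccc1 at −0.31 (SE 0.14); the kinase gene Bckdk was at −0.12. After rescaling, 0 genes of these 2 lists had such a p with lower values, against 4.66% of the tested genes, while 2 transsulfuration and cysteine enzymes had one with higher values, against 5.19%.

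Serine and one-carbon enzymes, which supply glycine and folate units, held members on both sides. Of 10 tested, 2 had an unadjusted p under 0.05 in the direction of higher values and 1 in the direction of lower values, beside 1.12% and 12.0% of all tested genes, with a median of 0.01. After rescaling 3 were higher and 1 was lower by this measure. Mthfd2 had FPKM of 9.80, 7.20, 11.6 and 3.07 (K320E-skm 1 to 4) against 1.40, 0.573, 0.509 and 1.28 (wild-type 1 to 4), so that K320E-skm 4 was the lowest of its genotype as for Asns. Psat1 of serine synthesis was at 0.97 (SE 0.30, exact permutation p = 0.0857). It entered the fit through K320E-skm 1, 2 and 3 and wild-type 2. The groups overlapped, with Psat1 at 0.648 FPKM in K320E-skm 4 and at 0.870 and 1.34 FPKM in wild-type 1 and 2. The mitochondrial folate enzyme gene Mthfd2l, related to Mthfd2, averaged 1.77 ± 0.115 FPKM in K320E-skm muscle against 2.98 ± 0.537 FPKM in wild-type (SD, n = 4 each). Its log2 fold change was −0.52 (SE 0.11, limma unadjusted p = 0.0012, adjusted p = 0.294).

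Among 13 tested other plasma membrane transporters, 1 had an unadjusted p under 0.05 in the direction of higher values and 4 in the direction of lower values, beside 1.12% and 12.0% of all tested genes, with a median of −0.08. After rescaling 1 was higher and 2 were lower. The glycine transporter gene Slc6a9 averaged 2.57 ± 0.682 FPKM in K320E-skm muscle against 1.44 ± 0.471 FPKM in wild-type (SD, n = 4 each), at 0.55 (SE 0.19). The aromatic amino acid transporter gene Slc16a10 averaged 3.11 ± 0.618 FPKM in K320E-skm muscle against 5.93 ± 2.08 FPKM in wild-type, at −0.71 (SE 0.16), and the neutral amino acid transporter gene Slc38a4 averaged 6.95 ± 1.38 FPKM in K320E-skm libraries and 11.4 ± 2.87 FPKM in wild-type libraries, at −0.62 (SE 0.17). The most abundant, the glutamine transporter gene Slc38a3, was at 0.12. None of these passed over all genes (limma adjusted p of 0.294 or more), and 16 of the 29 were under the filter.

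Of 4 tested lysosomal transporters, 1 had an unadjusted p under 0.05, with lower values as 12.0% of all tested genes had: the histidine and peptide transporter gene Slc15a4 at −0.45 (SE 0.15). Among 15 tested genes of amino acid sensing, 1 was higher and 2 were lower by this measure as deposited, beside 1.12% and 12.0% of all tested genes, with a median of −0.03. The balance turned after rescaling, to 3 higher and 0 lower beside 5.19% and 4.66%. Ddit4, a stress-induced brake on the growth kinase mTORC1, averaged 16.8 ± 6.86 FPKM in K320E-skm muscle against 7.24 ± 4.37 FPKM in wild-type (SD, n = 4 each), at 1.20 (SE 0.42). As deposited, Rragd, a GTPase that recruits mTORC1 to the lysosome, was at −0.42 (SE 0.13) and the arginine sensor relative Castor2 at −0.36 (SE 0.14).

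Of 13 tested regulators of the ATF4 pathway, 5 had an unadjusted p under 0.05 in the direction of higher values and 0 in the other, beside 1.12% and 12.0% of all tested genes, with a median of 0.21. Cebpb and Ddit3, transcription factors that pair with ATF4, were at 0.71 (SE 0.16) and 0.57 (SE 0.15), and Atf5, a related factor, was at 0.71 (SE 0.22). The Atf4 transcript averaged 50.3 ± 8.08 FPKM in K320E-skm muscle against 49.2 ± 8.39 FPKM in wild-type (SD, n = 4 each; log2 fold change 0.03, SE 0.17). After rescaling 7 of the 13 had such a p, all higher, beside 5.19% of all tested genes, and no gene of the 9 lists passed an adjusted p of 0.05 from limma under either scaling. Genes outside the rule for named genes that gained an unadjusted p under 0.05 with higher values after rescaling, named after their values were seen, were Got1, Asl, Pepd, Gss, Ggt5, Shmt2, Sesn1, Lars, Ppp1r15a and Hspa5.

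**Figure D4:**
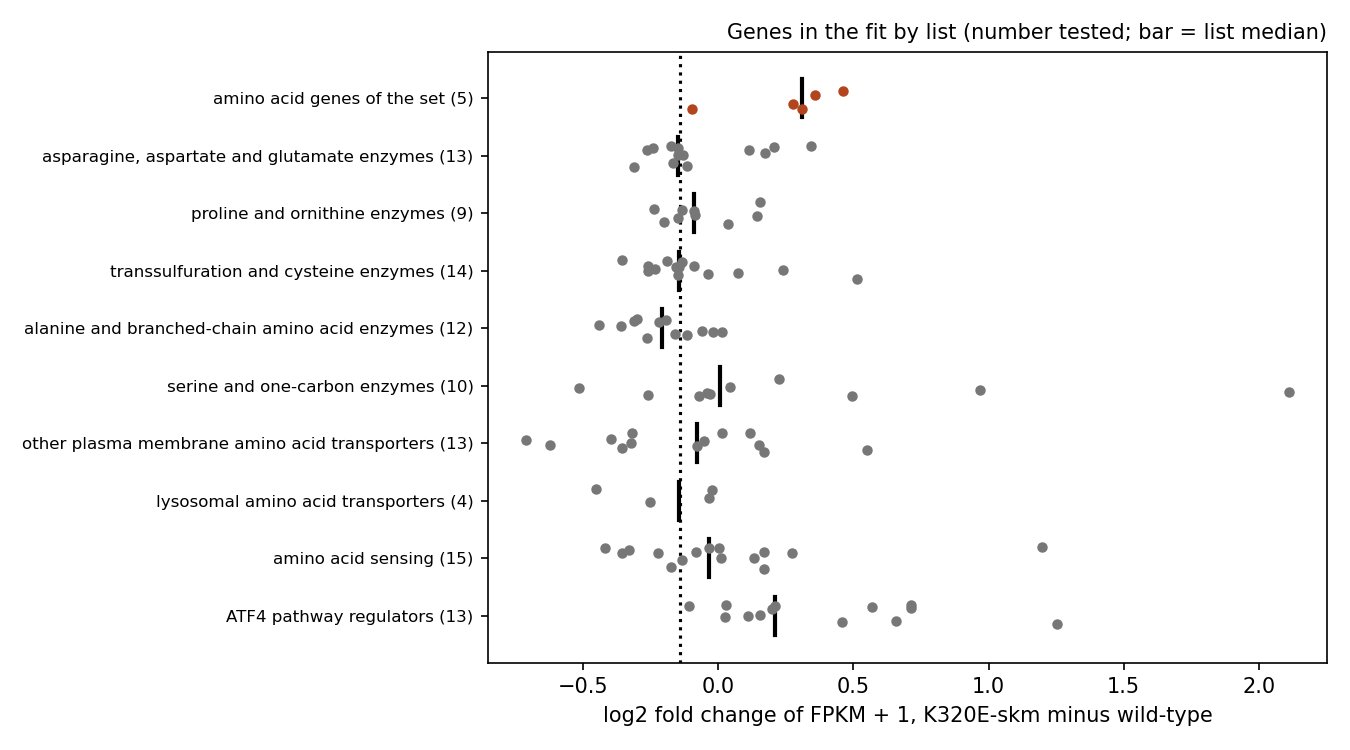
Log2 fold change of FPKM + 1, K320E-skm minus wild-type, of each gene in the fit by list, with the number tested; black bars are list medians and the dotted line is the median of all tested genes at −0.14. The 5 amino acid genes of the set that passed the filter (orange) have a median of 0.31, and the ATF4 pathway regulators one of 0.21.

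Markers of other cell types were set beside these values, since bulk tissue cannot tell fewer cells of a type from less RNA per cell. The 7 macrophage markers summed to 174, 128, 150 and 72.4 FPKM in K320E-skm 1 to 4 and to 191, 134, 62.1 and 62.4 FPKM in wild-type 1 to 4, so that the groups overlapped while K320E-skm 4 was again the lowest of its genotype. The 3 neutrophil markers summed to 5.89, 6.99, 24.6 and 1.04 FPKM (K320E-skm 1 to 4) against 1.97, 1.09, 1.56 and 3.06 FPKM (wild-type 1 to 4; exact permutation p = 0.143). K320E-skm 1, 2 and 3 lay above every wild-type library and K320E-skm 4 below them all, so this sum too was lowest in the K320E-skm library in which Asns was lowest. In K320E-skm 1 and 2 the sum was mostly S100a8, at 5.51 and 6.28 FPKM. S100a9 was at 0.326, 0.646, 8.55 and 0.376 FPKM (K320E-skm 1 to 4) against 0.920, 0.558, 0.523 and 2.01 FPKM (wild-type 1 to 4). The genotypes thus overlapped for S100a9. S100a8, the 1 of the 3 that passed the filter, did so through K320E-skm 1, 2 and 3 and wild-type 4. It had an unadjusted p under 0.05 from limma with higher values, as 1.12% of all tested genes did. Since S100a8 entered the fit mainly through K320E-skm libraries, that p carries little weight. In K320E-skm 4 it was at 0.487 FPKM, below every wild-type library. Retnlg was listed at 0 in wild-type 2 and 4. The summed levels of the T cell, fibroblast, endothelial, adipocyte, Schwann cell, satellite cell and erythroid markers overlapped between the genotypes too. The part of these cells in the levels of the amino acid genes was not tested. For every list of other cells, no marker was listed at 0 in all 8 libraries.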

How the data were processed

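Total RNA was sequenced from 8 tibialis anterior samples with a stranded library kit, per the labels' protocols. The values are FPKM per gene as deposited by the authors in 1 table. The tools named are TopHat2 2.0.10, Cufflinks 2.1.1 and CASAVA, with build mm10, per the submitters' processing notes. The sources used here give neither their annotation nor a strand setting, so overlapping genes are uncertain. FPKM carry no counting intervals.

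Groups were taken from the titles, and sex as labelled. The p-values cover only the spread among the 8 samples, which the labels do not describe further. Symbols, coordinates and gene types came from GENCODE M21 (GRCm38), which matched 47864 of 48328 IDs. Log2(FPKM + 1) was fitted with limma 3.58.1 in R 4.3.3 (labelled sex and genotype as terms; trended empirical Bayes; two-sided p) on genes that reached 1 FPKM in 4 libraries, with Benjamini-Hochberg adjustment over all genes tested. Single genes were compared by exact two-sided permutation of mean log2(FPKM + 1) over the 70 assignments of 4 against 4. The fit was tested on simulated data. Tables and figures were made with pandas 2.3.3 and matplotlib 3.10.9 in Python 3.11.15.

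The genes named are the 9 of the set; from each of 9 pathway lists up to 3 with the smallest unadjusted p under 0.05 and the 1 with the highest mean FPKM; Twnk and Mthfd2; and the 5 nearest to Asns. Markers, sex-linked and overlapping genes are named for checks. The members and lists were chosen with earlier results of these data known. Alternatives were other filters, pseudocount, scaling, covariates, protein-coding genes alone and leaving out each library.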

Additional observations from a re-analysis of the deposited data

Results flagged for a closer look

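Each of the 34 named genes of the set and the lists was checked in each genotype for a library far from the other 3, 68 groups in all, of which chance flags about 1 in 20. The check found 1: Slc38a3 was at 16.6 FPKM in wild-type 1, below 19.2 to 19.7 FPKM in the other wild-type libraries. None of the 9 amino acid genes was found by it.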

How the results depend on the processing

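Of 142 alternative fits of the 9 genes, 139 kept the direction and stayed on the same side of an adjusted p of 0.05 from limma, which none passed. The unadjusted p from limma did cross 0.05 in some, as for Aldh18a1, at 0.147 in the main fit and 0.00962 without K320E-skm 4. The 3 that reversed were log2 fold changes of Gpt2, at 0.078 after median-ratio rescaling, 0.082 after quantile normalization and 0.17 without K320E-skm 4 (range when leaving out 1 library −0.33 to 0.17). Without the sex term the fold changes were the same, as they must be where the labelled sexes are balanced between the genotypes. The smallest adjusted p of the 9 genes was then 0.342 (limma). Of 153 alternatives for the counts in the 9 pathway lists, 50 moved the count by over 1.5 times. The count of genes called over all genes was 2, and was 1 with no filter, 1 with a filter of 5 FPKM, 0 for protein-coding genes alone, and 2 to 3 when leaving out 1 library. The count of the 9 genes that were in the fit with an unadjusted p under 0.05 was 0, and was 2 with no filter, 4 with a filter of 0.1 FPKM, 3 after median-ratio rescaling, 3 after quantile normalization, 1 for protein-coding genes alone and 0 to 4 when leaving out 1 library (4 without K320E-skm 4, 1 without wild-type 1 and 1 without wild-type 3). The count higher without overlap was 2, and was 4 after either rescaling and 2 to 5 when leaving out 1 library, with 5 without K320E-skm 4 and 4 without wild-type 1. Shares of all genes stand beside the counts above for the lower filters, median-ratio rescaling and the values without K320E-skm 4. For the other alternatives, the replicate block among them, no such share is given. Those counts therefore cannot be read as particular to the 9 genes. The log2 fold change of Asns lay between 1.03 and 1.81 when leaving out 1 library. The median log2 fold change lay between 0.22 and 0.48 when leaving out 1 library. With the replicate block 2 genes were called over all genes. Of the 5 genes of the set in that fit, 3 had an unadjusted p under 0.05 from limma. Deviations of libraries with the same replicate number correlated at 0.02 to 0.16 across genes. By this measure 3 of 4 K320E-skm libraries were closest to the wild-type library of their number. This check does not settle whether the replicate numbers pair the samples. FPKM carry no counting intervals, so the precision of low genes such as Slc7a11 is unknown. The causes were not tested.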
